A study of Saccharomyces cerevisiae with 15 samples.

Results

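Raising the dose of lanthanum (La) from its EC10 to its EC50 was examined here across all measured genes of the budding yeast Saccharomyces cerevisiae. The comparison set 3 libraries of cells given 160 µM La for 1 h against 3 libraries of cells given 50 µM La for the same time. A gene was taken where these 6 libraries averaged 10 or more normalized counts, which left 5557 genes of the 6600 identifiers in the table and 6 of the 15 libraries of the series. EC10 and EC50 are the doses with a 10 and a 50 percent effect. All cells were of strain BY4741, a laboratory haploid with deletions in LEU2, URA3, MET17 and HIS3, in yeast nitrogen base with β-glycerophosphate, a phosphate ester. The series also held 3 libraries of untreated cells in that medium, used below as a reference level, and 3 libraries each at 6 µM (EC10) and 8 µM (EC50) of ytterbium (Yb), a heavy rare earth metal, used below to compare its dose step with that of La. Separate cultures are not stated for the libraries of a group, and the p-values cover only how far these samples spread, possibly for technical reasons. Libraries are named by the running number in the table, which is 13, 14 and 15 for La EC10 and 10, 11 and 12 for La EC50, and values listed for a group are in that order.

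Yeast senses phosphate through the PHO pathway, in which the factor Pho4 turns on secreted acid phosphatases and phosphate transporters when inorganic phosphate is short. La ions bind phosphate, and β-glycerophosphate gives up its phosphate only after a phosphatase has cut it. Glucose is read at the plasma membrane by sensors that lift repression of the hexose transporter genes, with Mth1 as a part of the repressor. Unfolded proteins call up chaperones through the heat shock factor Hsf1, and damage to the wall calls up its repair genes through the kinase Slt2.

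Promoter windows of 6 genes are shown because their changes are described below, 3 phosphate genes that rose, 2 chaperone genes that fell and a purine gene that fell. Each window runs from 400 to 101 bases before the start codon and is printed 5′ to 3′ on the strand of the gene, from the RefSeq sequence of build R64. In the first 3, capitals mark CACGTG, the core bound by Pho4 and by Cbf1. The windows are chrII:431052-431351, minus strand for PHO5, chrII:798623-798922, minus strand for PHO89 and chrI:225060-225359, plus strand for PHO11.

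PHO5: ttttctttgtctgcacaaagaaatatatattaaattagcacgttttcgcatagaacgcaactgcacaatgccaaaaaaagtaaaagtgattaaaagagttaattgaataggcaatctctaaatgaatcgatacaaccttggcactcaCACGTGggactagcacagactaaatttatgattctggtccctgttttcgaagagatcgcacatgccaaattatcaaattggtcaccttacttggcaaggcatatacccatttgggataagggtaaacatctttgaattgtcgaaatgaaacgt
PHO89: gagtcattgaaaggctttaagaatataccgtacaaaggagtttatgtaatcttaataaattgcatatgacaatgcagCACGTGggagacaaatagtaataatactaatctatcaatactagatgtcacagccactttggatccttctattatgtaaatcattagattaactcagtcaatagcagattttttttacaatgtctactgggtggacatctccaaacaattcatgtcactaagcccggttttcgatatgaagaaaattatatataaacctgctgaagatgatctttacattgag
PHO11: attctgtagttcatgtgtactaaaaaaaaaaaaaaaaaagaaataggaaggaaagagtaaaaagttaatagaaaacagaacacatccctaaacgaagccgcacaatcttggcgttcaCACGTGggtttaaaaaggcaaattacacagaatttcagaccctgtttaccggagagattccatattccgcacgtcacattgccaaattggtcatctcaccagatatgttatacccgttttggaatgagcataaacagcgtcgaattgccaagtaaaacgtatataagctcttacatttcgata

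The core began 253 bases before the start codon in PHO5, 323 in PHO89 and 283 in both PHO11 and PHO12. It was present, on either strand, in 4.54% of the windows of all 6007 genes with one, in 14 of 22 phosphate starvation genes (63.6%) and in all 4 of them that changed with dose. In the next pair, chrI:141532-141831, minus strand for SSA1 and chrIV:974344-974643, minus strand for HSP78, capitals mark TTCNNGAA, a core of the element bound by Hsf1.

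SSA1: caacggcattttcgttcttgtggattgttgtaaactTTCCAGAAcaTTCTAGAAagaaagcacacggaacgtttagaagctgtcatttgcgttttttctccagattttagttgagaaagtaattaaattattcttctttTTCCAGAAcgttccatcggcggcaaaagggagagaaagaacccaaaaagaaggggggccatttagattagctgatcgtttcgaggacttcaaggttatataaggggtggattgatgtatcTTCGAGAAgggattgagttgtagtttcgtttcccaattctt
HSP78: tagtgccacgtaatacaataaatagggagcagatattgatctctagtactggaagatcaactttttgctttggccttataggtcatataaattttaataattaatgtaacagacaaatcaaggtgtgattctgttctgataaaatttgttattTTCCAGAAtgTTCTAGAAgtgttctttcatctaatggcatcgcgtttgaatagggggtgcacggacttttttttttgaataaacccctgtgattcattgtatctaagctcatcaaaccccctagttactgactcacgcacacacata

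SSA1 held 4 copies and HSP78 held 2. The core stood in 13.8% of all windows, in 22 of 26 heat shock genes (84.6%), in 8 of the 9 of these that fell and in 14 of all 44 genes that fell (31.8%). These 14 include the 8 from the heat shock list. In the last window, chrXIII:509381-509680, minus strand for ADE17, capitals mark TGACTC on either strand, the core bound by Bas1 and Gcn4.

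ADE17: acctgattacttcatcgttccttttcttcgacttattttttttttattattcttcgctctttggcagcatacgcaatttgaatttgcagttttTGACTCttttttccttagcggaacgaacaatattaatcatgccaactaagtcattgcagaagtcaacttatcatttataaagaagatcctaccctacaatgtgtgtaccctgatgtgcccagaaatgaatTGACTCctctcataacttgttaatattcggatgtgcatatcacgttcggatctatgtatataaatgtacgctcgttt

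ADE17 held 2 copies, and 8.47% of all windows held at least 1. The lists of heat shock and phosphate genes were drawn up from what is known of these factors, so a high share of the core within a list describes the list. A match is a run of letters and does not show binding. Motifs were searched on both strands, and 0 pairs of matches shared bases in the windows printed.

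La EC10 libraries held 6088849 to 7079746 reads and La EC50 libraries 6220111 to 7183175. URA3, LEU2 and MET17, deleted in this strain, were at 0 in all 6 La libraries, while HIS3, whose deletion there is partial, kept its reads. Of 7 a-cell, 2 α-cell and 12 meiosis markers tested between the doses, SAG1 had the lowest limma adjusted p at 0.0527. The a-cell marker AGA2 was at 0.0528. The α-cell markers SAG1 and STE3 had estimates of 0.31 ± 0.08 and -0.50 ± 0.13 (STE3 adjusted p = 0.0623). SAG1 read 231 to 254 normalized counts at EC10 and 282 to 313 at EC50. STE3 read 64.7 to 79.6 at EC10 and 47.4 to 54.8 at EC50. The α-factor gene MF(ALPHA)1 had at most 6.37 normalized counts in a La library. Library 14 of La EC10 stood apart from its 2 companions. A chi-square of its reads against libraries 13 and 15, divided by its degrees of freedom, was 17.8 and 17.3, while that of 13 against 15 was 2.92. On the leading principal component of the control and La libraries, with 50.8% of the variance, it lay at -0.0044 while libraries 13 and 15 lay at 8.57 and 9.003 and the La EC50 libraries at 8.96 to 10.6. The next component, with 13.9%, held all 3 La EC10 libraries at 6.498 to 8.52 and all 3 La EC50 libraries at -9.61 to -3.06.

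Between the doses 99 of the 5557 genes were called by limma at an adjusted p under 0.05 (1.78%), 55 higher at EC50 (0.99%) and 44 lower (0.792%). With every library rescaled to an equal total, 57 were higher and 24 lower, which made 70.4% of the calls higher in place of 55.6%, while the median change of all genes moved from 0.0072 to 0.034 on the log2 scale. Of the calls, 6 rises and 3 falls were at least 2-fold, and the sizes ran from 0.25 to 1.85 with a median of 0.45 (log2). Ranges of the 3 and 3 libraries did not overlap in any of the 99 called genes, and in 1173 of all genes tested (21.1%). The count of calls was 44, 58 and 32 without La EC50 library 10, 11 or 12, and 46, 100 and 42 without La EC10 library 13, 14 or 15. Of the 99 genes, 70 were still called without library 14, and 29 were called in every one of these 6 leave-outs and in all 12 other settings tried. In RNA from whole cultures, fewer cells of a type and less RNA per cell cannot be told apart.

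**Figure D1:**
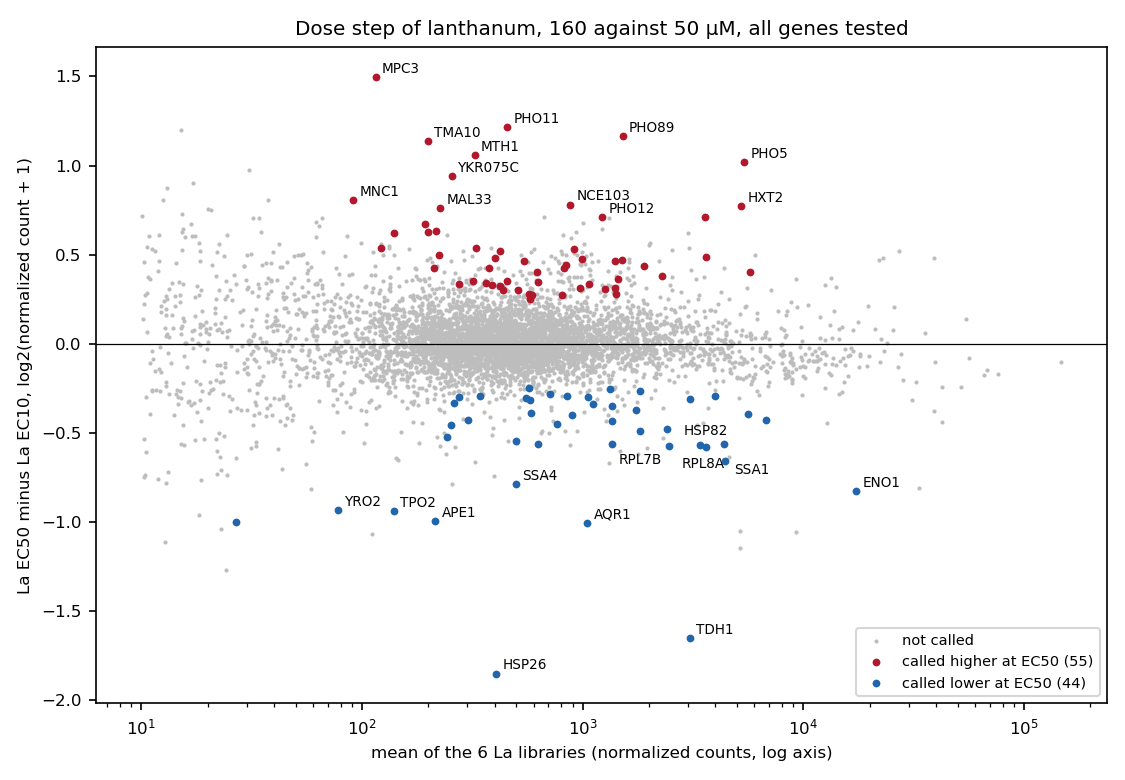
Change of each of the 5557 genes from La EC10 (50 µM) to La EC50 (160 µM), on the log2(normalized count + 1) scale, against the mean of the 6 La libraries (log axis). Red points are the 55 genes called higher, blue points the 44 called lower, grey points those not called, and the labelled genes are the 12 largest rises and 12 largest falls among called genes averaging 50 or more in the higher group. HSP26 lies lowest at -1.85 and MPC3 highest at 1.497.

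Of the 22 phosphate starvation genes tested, 4 rose from EC10 to EC50, a phosphate transporter gene and 3 genes of secreted acid phosphatases. Among all genes tested, 0.99% were called higher. PHO89 (YBR296C, chromosome II, 796798 to 798522), the sodium-coupled phosphate transporter, stood at 1013, 801 and 1008 normalized counts at EC10 and at 2031, 2159 and 2105 at EC50. Every EC50 library was about the same and lay above every EC10 library. The change was 2.23-fold, or 1.16 ± 0.09 on the log2 scale (SE, n = 3 and 3, limma adjusted p = 4.06e-06), the lowest p of the 55 rises. PHO5 (YBR093C, chromosome II, 429548 to 430951), the main secreted acid phosphatase, read 3586, 3205 and 3938 at EC10 and 7059, 7156 and 7479.9 at EC50, a change of 1.02 ± 0.16 (adjusted p = 0.00295). All 3 EC50 libraries again exceeded all 3 EC10 libraries. PHO11 (YAR071W, chromosome I, 225460 to 226863), another secreted acid phosphatase, read 265, 259 and 297 at EC10 and 669, 585 and 654 at EC50, a change of 1.21 ± 0.16 (adjusted p = 0.00110). PHO12 (YHR215W, chromosome VIII, 552099 to 553502) read 956, 845 and 997 at EC10 and 1544, 1444 and 1591 at EC50, a change of 0.71 ± 0.13 (adjusted p = 0.00893), and its call ended without La EC50 library 12. PHO11 and PHO12 are near-identical copies, so the split of reads between them is uncertain.

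Control cells give the level these genes had without La, in libraries 1, 2 and 3. PHO5 read 7439, 8644 and 8070.2 there, so all EC10 libraries and EC50 libraries 10 and 11 lay below the control range, and EC50 library 12 lay just inside it. PHO89 read 3037, 3128 and 2898 in control, above both La groups, and PHO11 read 695, 823 and 653, a range that the EC50 libraries overlapped. Against control, PHO5 changed by -1.17 ± 0.16 at EC10 and -0.15 ± 0.16 at EC50, PHO89 by -1.69 ± 0.09 and -0.53 ± 0.09, PHO11 by -1.39 ± 0.16 and -0.18 ± 0.16, and PHO12 by -1.47 ± 0.13 and -0.76 ± 0.13 (log2, SE). These contrasts share libraries with the dose step and are given side by side only.

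The other 18 phosphate starvation genes did not pass the test. The median change of the list was 0.10, against 0.0072 over all genes. PHO84, the high-affinity phosphate transporter, read 14088, 13627 and 14705 at EC10 and 12745, 12649 and 12112 at EC50, and its estimate was -0.18 ± 0.09 (adjusted p = 0.355). Its libraries at EC50 were all below those at EC10, on the other side from PHO89. PHO3, the acid phosphatase that does not need phosphate shortage, had an estimate of 0.12 ± 0.12. SPL2, which holds back low-affinity phosphate uptake, had 0.41 ± 0.12 (adjusted p = 0.112), with ranges of 391 to 497 and 529.8 to 673. The kinase inhibitor PHO81 was at -0.05, the vacuolar phosphatase PHO8 at 0.17, and the polyphosphate polymerase genes VTC1, VTC2, VTC3 and VTC4 at 0.05, -0.05, 0.05 and 0.08, with adjusted p values from 0.297 to 0.796. Without La EC50 library 12 the list had 3 calls.

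**Figure D2:**
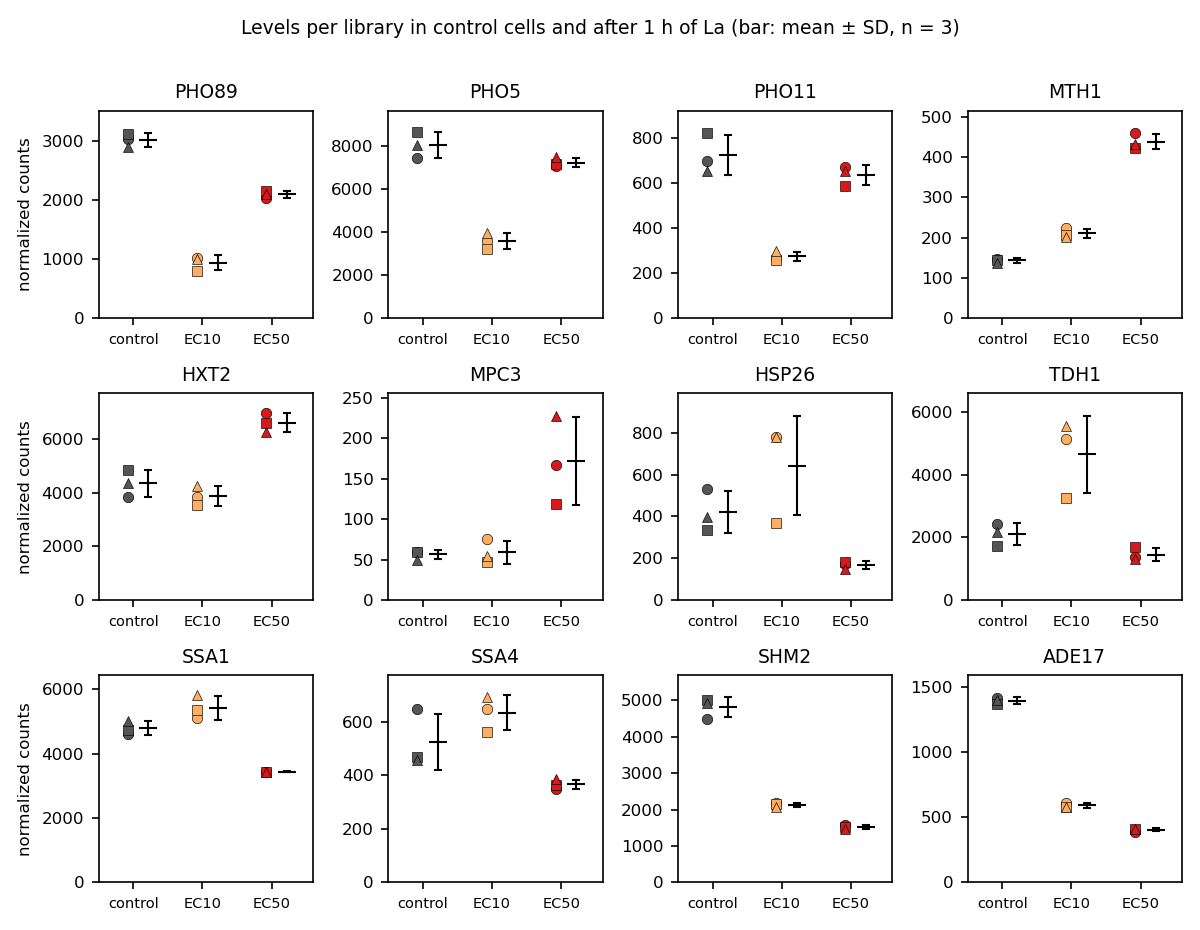
Normalized counts per library of 12 genes in untreated cells, at La EC10 (50 µM) and at La EC50 (160 µM), on linear axes that start at 0. Circles, squares and triangles are libraries 1, 2 and 3 in control, 13, 14 and 15 at EC10 and 10, 11 and 12 at EC50, and the bar beside them is the mean ± SD (n = 3). PHO89, PHO5 and PHO11 fall from control to EC10 and are higher again at EC50, while SHM2 and ADE17 are lower at each dose and library 14 lies far below its companions for HSP26 and TDH1.

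Of 19 hexose transport and glucose sensing genes tested, 3 rose, a corepressor gene and 2 glucose transporter genes, against 0.99% of all genes. MTH1 (YDR277C, chromosome IV, 1014401 to 1015702), the corepressor of hexose transporter genes, read 223, 206 and 202 at EC10 and 461, 423 and 432 at EC50, against 147, 145 and 137 in control. The 3 groups did not overlap and rose in the order of dose. The step was 2.09-fold, 1.06 ± 0.14 on the log2 scale (adjusted p = 0.00103). HXT2 (YMR011W, chromosome XIII, 288079 to 289704), a glucose transporter with high affinity, read 3846, 3533 and 4257 at EC10 and 6966, 6605 and 6269 at EC50, a step of 0.77 ± 0.12 (adjusted p = 0.00295), and its EC10 range overlapped the control range of 3832 to 4862. HXT1, a transporter with low affinity, read 818, 843 and 835 at EC10 and 1163, 1169 and 1146 at EC50, a step of 0.48 ± 0.09 (adjusted p = 0.00910), and both doses stayed below its control range of 1653 to 2102. The other 16 did not pass the test, and the list median was 0.10. HXT3 was at 0.37 ± 0.10 (adjusted p = 0.0689), HXT4 at 0.46 ± 0.15 (adjusted p = 0.137) and the repressor MIG2 at 0.26 ± 0.11 (adjusted p = 0.288). No leave-out ended the call of MTH1, HXT2 or HXT1.

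The maltose gene cluster on chromosome II rose in part. MAL33 (YBR297W, chromosome II, 800523 to 801929), the regulator gene, read 178, 168 and 158 at EC10 and 293, 282 and 280.1 at EC50, a step of 0.76 ± 0.12 (adjusted p = 0.00452). MAL31 (YBR298C, chromosome II, 802631 to 804475), the maltose permease gene beside it, read 171, 171 and 165 at EC10 and 258, 241 and 291 at EC50, a step of 0.63 ± 0.13 (adjusted p = 0.0198). MAL32, the maltase gene, stayed low at 27.1, 17.6 and 26.5 at EC10 and 23.9, 22.8 and 18.0 at EC50, with an estimate of -0.12 ± 0.28 (adjusted p = 0.873). MAL11, the permease gene of the cluster on chromosome VII, was called at 0.62 ± 0.14 (adjusted p = 0.0385), while MAL13 and MAL12 of that cluster had estimates of 0.18 ± 0.11 and -0.09 ± 0.39. The maltase genes are close copies of each other, so the split of their reads is uncertain. How far the permease genes share reads was not examined. MAL31 lost its call without library 10, 12, 13 or 15 and MAL11 without any single library other than 11. All but MAL33 were looked at after the values were seen.

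Among genes of carbon metabolism MPC3 (YGR243W, chromosome VII, 977336 to 977776), a subunit of the mitochondrial pyruvate carrier, had the largest estimated rise. It read 75.2, 47.2 and 55.2 at EC10 and 168, 119 and 228 at EC50, 2.90-fold, with a spread at EC50 wider than that of the phosphate genes. The step was 1.497 ± 0.26 (adjusted p = 0.00729) and was not called without La EC50 library 12. The carrier subunits MPC1 and MPC2 had estimates of 0.39 ± 0.14 and 0.03 ± 0.06 (adjusted p = 0.178 and 0.858). HAP4, the activator of respiratory genes, rose from 453 ± 8.54 to 626 ± 41.4 normalized counts (SD, n = 3), a step of 0.46 ± 0.06 that held in every leave-out. Of the 42 respiratory chain and ATP synthase genes, the external NADH dehydrogenase NDE1 rose by 0.28 ± 0.07 and the ATP synthase inhibitor INH1 changed by -0.45 ± 0.10, with a list median of -0.08. Of the 32 citrate and glyoxylate cycle genes, MPC3 rose and LSC2, a subunit of succinyl-CoA ligase, changed by -0.45 ± 0.08, with a median of 0.03. Beside these lists, 0.99% of all genes were called higher and 0.792% lower. NCE103 (YNL036W, chromosome XIV, 559814 to 560479), the carbonic anhydrase, read 675, 624 and 634 at EC10 and 1136, 979 and 1221 at EC50, a step of 0.78 ± 0.11 (adjusted p = 0.00214). NDE1 was called in no leave-out, INH1 only without library 15, and LSC2 not without library 12, 13 or 15.

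Of the 26 heat shock genes tested, 9 fell from EC10 to EC50 and 17 did not pass the test, while 0.792% of all genes were called lower. SSA1 (YAL005C, chromosome I, 139503 to 141431), a cytosolic Hsp70, read 5101, 5346 and 5837 at EC10 and 3420.3, 3444 and 3439 at EC50. The EC50 libraries were within a narrow band, below every EC10 library and below the control libraries at 4617, 4739 and 5022. The step was -0.66 ± 0.08 (adjusted p = 0.00103). SSA4 (YER103W, chromosome V, 364589 to 366517), the Hsp70 made on heat stress, read 645, 561 and 690.2 at EC10 and 348, 363 and 385 at EC50, a step of -0.79 ± 0.13 (adjusted p = 0.00585). HSP82 (YPL240C, chromosome XVI, 96496 to 98625), an Hsp90, read 3929.7, 4145 and 4122 at EC10 and 2763, 2778 and 2677 at EC50, a step of -0.57 ± 0.08 (adjusted p = 0.00153), with the EC10 libraries above the control range of 2909 to 3236 and the EC50 libraries below it. SSA1, SSA4 and HSP82 were called in every leave-out. SSA1 and HSP82 each have a close copy, and the estimates of those copies were -0.29 ± 0.09 for SSA2 and -0.28 ± 0.09 for HSC82 (adjusted p = 0.131 and 0.121), so the division of reads between copies is uncertain.

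Of the 26 estimates, 24 were below 0, against 2641 of all 5557 genes. The median of the heat shock list was -0.28, and -0.26 with equal totals or quantile normalization. Beside the 3 above, the genes that fell were the mitochondrial disaggregase HSP78 at -0.56 ± 0.11, the endoplasmic reticulum oxidase ERO1 at -0.48 ± 0.11, the cytosolic disaggregase HSP104 at -0.43 ± 0.10, the Hsp90 activator AHA1 at -0.34 ± 0.06, the mitochondrial chaperonin HSP60 at -0.29 ± 0.06 and the cyclophilin CPR6 at -0.26 ± 0.06 (adjusted p from 0.00768 to 0.0473). HSP104 went from 1557 ± 76.0 to 1153 ± 68.2 normalized counts (SD, n = 3), against 1464 ± 140.1 in control. The co-chaperones STI1, SIS1 and YDJ1 had estimates of -0.30 ± 0.08, -0.23 ± 0.06 and -0.11 ± 0.08 (adjusted p = 0.0667, 0.0615 and 0.565). SSA3, an Hsp70 made mainly in stationary cells, read 285 ± 28.2 and 284 ± 24.5, an estimate of -0.00 ± 0.09 (adjusted p = 0.988), and it resembles SSA4. Equal totals left 5 calls in the list, the fit to the groups compared left 6, and single leave-outs left 3 to 6, with 6 without library 14. Equal totals ended the calls of HSP104, HSP60, CPR6 and ERO1. HSP104, HSP60 and CPR6 were called in no leave-out and ERO1 only without library 14. HSP78 was not called without library 11, 12, 13 or 15, nor AHA1 without library 12.

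HSP26 and TDH1 had the largest falls of the 44, and in both La EC10 library 14 was the lowest of its group. HSP26 (YBR072W, chromosome II, 382030 to 382674), a small heat shock protein, read 778, 369 and 780.5 at EC10 and 171, 184 and 150.4 at EC50. Library 14 lay within the control range of 335 to 530.00 while its companions lay above it, and all 3 EC50 libraries lay below it. The step was 3.81-fold lower, -1.85 ± 0.35 on the log2 scale (adjusted p = 0.0117), and was not called without library 12, 13 or 15. TDH1 (YJL052W, chromosome X, 338271 to 339269), a glyceraldehyde-3-phosphate dehydrogenase, read 5144, 3254 and 5556 at EC10 and 1364, 1682 and 1305 at EC50, a step of -1.65 ± 0.33 (adjusted p = 0.0168), not called without library 10, 12, 13 or 15. ENO1, an enolase, read 22329.9, 20496 and 23768 at EC10 and 11598, 14041 and 12026 at EC50, a step of -0.82 ± 0.18 (adjusted p = 0.0249) with the same 4 exceptions, and its EC50 values overlapped its control values of 11719, 10600.2 and 13325. The estimates of the copies TDH2, TDH3 and ENO2 were -0.31 ± 0.10, -0.10 ± 0.13 and -0.15 ± 0.12 (adjusted p = 0.114, 0.746 and 0.600).

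Of the 38 general stress genes tested, HSP26 fell and TMA10, whose product is found with ribosomes, rose. Over all genes tested 0.792% were called lower and 0.99% higher. TMA10 read 127, 101 and 138 at EC10 and 296, 192 and 335 at EC50, a step of 1.137 ± 0.27 (adjusted p = 0.0400), not called without any single library other than 11. The list median was -0.16, and -0.30 without library 14. The mean deviation of this list from the mean of the control and La libraries was 0.32 and 0.35 in libraries 13 and 15 and -0.03 in library 14, and its part in the falls of HSP26 and TDH1 was not tested. HSP12, a membrane-protecting stress protein, read 421, 184 and 391 at EC10 and 212, 154 and 179 at EC50, and its estimate was -0.79 ± 0.35 (adjusted p = 0.314). The catalase gene CTT1, with 146 ± 21.3 and 149 ± 8.26 normalized counts (SD, n = 3), and the trehalose synthase gene TPS1, with 1207 ± 70.6 and 1104 ± 54.9, had estimates of 0.03 ± 0.20 and -0.13 ± 0.10.

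The 12 largest falls among genes averaging 50 or more in the higher group also held AQR1, TPO2, APE1 and YRO2. AQR1, a plasma membrane exporter, read 1297, 1419.6 and 1438 at EC10 and 538, 1019.5 and 596 at EC50, so library 11 was closer to EC10 than its companions were. Its step was -1.004 ± 0.20 (adjusted p = 0.0161), not called without library 10, 12 or 15. TPO2, a polyamine exporter, read 188, 165 and 195 at EC10 and 94.7, 110.3 and 81.1 at EC50, a step of -0.94 ± 0.15 (adjusted p = 0.00295) that was called in every leave-out. APE1, a vacuolar aminopeptidase, read 309, 216 and 339 at EC10 and 139, 156 and 131 at EC50, a step of -0.996 ± 0.20, not called without library 10, 12, 13 or 15. YRO2, a plasma membrane protein, read 116, 69.4 and 125 at EC10 and 42.9, 54.7 and 60.4 at EC50, a step of -0.93 ± 0.20, called only without library 14 among the leave-outs. Among the rises, YKR075C, of unknown function, went from 175 ± 12.8 to 337 ± 38.9 (SD, n = 3) and MNC1 from 65.3 ± 4.31 to 117 ± 29.5, steps of 0.94 ± 0.18 and 0.81 ± 0.18, the first not called without library 10, 12 or 15 and the second called only without library 10. TPO4, also a polyamine exporter and 1 of 16 drug pump genes tested, rose from 745 ± 40.7 to 1079 ± 56.0 normalized counts (SD, n = 3), a step of 0.53 ± 0.10, not called without library 10 or 13.

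SHM2 and ADE17, of the one-carbon and purine routes, stood lower at EC10 than in control and lower again at EC50. SHM2 (YLR058C, chromosome XII, 257992 to 259401), the cytosolic serine hydroxymethyltransferase, read 4496, 5013 and 4924 in control, 2174, 2159 and 2067 at EC10 and 1582, 1528 and 1459 at EC50. The 3 groups did not overlap. The dose step was -0.49 ± 0.06 (adjusted p = 0.00103). ADE17 (YMR120C, chromosome XIII, 507502 to 509280), which closes the purine ring, read 1415, 1365 and 1399.95, 609, 581 and 581 at EC10 and 389.9, 412 and 413 at EC50 in the same order, a dose step of -0.54 ± 0.07 (adjusted p = 0.00103). The 3 groups were again apart, and both genes were called in every leave-out. Their isoenzymes SHM1, in mitochondria, and ADE16 had estimates of 0.10 ± 0.08 and -0.10 ± 0.07 (adjusted p = 0.556 and 0.546).

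Of 24 glycine, serine and one-carbon genes, SHM2 and SER33, a phosphoglycerate dehydrogenase of serine synthesis at -0.25 ± 0.05 (adjusted p = 0.0285), fell, with a median of -0.04. The glycine cleavage genes GCV1, GCV2 and GCV3 had estimates of -0.33 ± 0.10, -0.28 ± 0.08 and -0.14 ± 0.08 (adjusted p = 0.100, 0.0804 and 0.414). GCV2 read 768, 909 and 909 in control, 419, 363 and 382 at EC10 and 314, 302 and 341 at EC50. CHA1, the serine deaminase, read 105 ± 3.16 and 107 ± 8.98 (SD, n = 3), an estimate of 0.03 ± 0.15. Of 25 purine synthesis genes ADE17 alone fell, with a median of -0.02 that became 0.010 with equal totals. The share of all genes called lower was 0.792%. SER33 was not called without library 10, 11, 12, 13 or 15.

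Of 137 ribosomal protein genes tested, 4 fell, each of them 1 copy of a duplicated pair, and 133 did not pass the test. Among all genes tested, 0.792% were called lower. RPL8A (YHL033C, chromosome VIII, 35255 to 36025) read 4243, 4753 and 4078 at EC10 and 2744, 2872 and 3115 at EC50, a step of -0.58 ± 0.10 (adjusted p = 0.00598). RPL7B (YPL198W, chromosome XVI, 173152 to 174702) read 2952, 2965 and 2876 at EC10 and 1940.5, 1933 and 2046 at EC50, a step of -0.57 ± 0.07 (adjusted p = 0.000795). RPL9B read 5020.2, 5839 and 4847 at EC10 and 3752, 3432 and 3426 at EC50, a step of -0.56 ± 0.09 (adjusted p = 0.00295), and RPL22B changed by -0.37 ± 0.09 (adjusted p = 0.0363). In each the EC50 libraries lay below every EC10 library. The other copies RPL8B, RPL7A, RPL9A and RPL22A had estimates of -0.07 ± 0.12, -0.10 ± 0.09, -0.12 ± 0.11 and -0.21 ± 0.09 (adjusted p = 0.818, 0.646, 0.657 and 0.302). The difference between copies was not tested, and the counting could split reads between them. RPL7B also carries the small nucleolar RNA gene SNR59 within its span.

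The ribosomal protein list had a median of -0.10, or -0.07 with equal totals and -0.04 with quantile normalization or without library 14. RPL22B was not called in any leave-out. HMO1, a chromatin protein found at ribosomal DNA and ribosomal protein genes, read 1598, 1666 and 1586 at EC10 and 1087, 1099.8 and 1095 at EC50, a step of -0.56 ± 0.06 (adjusted p = 0.000227) that was called in every leave-out. DOT6, a repressor of ribosome biogenesis genes, fell from 1015 ± 98.2 to 767 ± 51.2 normalized counts (SD, n = 3), a step of -0.40 ± 0.07, not called without library 10 or 12. Of 116 ribosome biogenesis genes limma and edgeR called 0, as did DESeq2, and the median was 0.01, or 0.11 without library 14. In that list 5 higher and 3 lower estimates had an unadjusted limma p under 0.05, against 810 of all 5557 genes. HMO1 and DOT6 were looked at after their values were seen.

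A few wall genes that stood higher at EC10 than in control were higher again at EC50, by small amounts. PRM5 (YIL117C, chromosome IX, 140613 to 141569), a gene induced through the wall integrity pathway, read 468, 533 and 459 in control, 1312, 1163 and 1301 at EC10 and 1944, 1632 and 1662 at EC50. The 3 groups did not overlap, and the dose step was 0.47 ± 0.08 (adjusted p = 0.00585). CRH1, which links chitin to glucan, read 5080.4, 4454 and 5242 at EC10 and 6769.8, 6294 and 6449 at EC50, a step of 0.40 ± 0.07 (adjusted p = 0.00810), not called without library 10. YPS3, a cell-surface protease, read 312, 301 and 346 at EC10 and 407, 443 and 439 at EC50, a step of 0.43 ± 0.10 (adjusted p = 0.0344), not called in any leave-out. Of the 27 wall integrity targets these 3 rose and 24 did not pass the test, while 0.99% of all genes were called higher. Estimates were above 0 in 25 of the 27, against 2916 of all 5557 genes, and the list median was 0.19. Against control the median of the list was 0.85 at EC10 and 1.06 at EC50. The kinase gene KDX1 read 1030.3, 1096 and 787 at EC10 and 1229.5, 1250.2 and 1221 at EC50, an estimate of 0.36 ± 0.11 (adjusted p = 0.107). PIR3, a wall protein, had -0.05 ± 0.19 and the mannoprotein CWP1 0.30 ± 0.10 (adjusted p = 0.925 and 0.141).

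Of 53 glucan, chitin and wall mannoprotein genes, 4 rose, against 0.99% of all genes, with a median of 0.11. They were CRH1, YPS3, the chitin synthase export gene CHS7 at 0.31 ± 0.07 and the mannoprotein gene TIP1 at 0.38 ± 0.08 (adjusted p = 0.0405 and 0.0336), and of these 4 CRH1 alone stayed called in each leave-out, other than that of library 10, where TIP1 alone did. Of 16 calcineurin targets SUR1, a mannosyltransferase of sphingolipid synthesis, rose from 1184 ± 92.6 to 1632 ± 47.0 normalized counts (SD, n = 3), a step of 0.46 ± 0.08 (adjusted p = 0.00677), as did TIP1, with a median of 0.17. Without library 14 that median was 0.09, and SUR1 was called higher and the ammonium permease gene MEP1 lower. The sensor gene WSC3 rose by 0.32 ± 0.07 and the mannosyltransferase genes KTR2 and KTR5 by 0.35 ± 0.08 and 0.35 ± 0.08, while MNN1, which adds the outer mannose, changed by -0.35 ± 0.08 (adjusted p from 0.0328 to 0.0399). These last 4 were looked at after their values were seen and lost their calls in most leave-outs.

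Among membrane lipid genes OLE1 (YGL055W, chromosome VII, 398628 to 400160), the fatty acid desaturase, read 3422, 3509 and 3759 in control, 2786, 2492 and 2852 at EC10 and 4338, 4711 and 4231 at EC50. EC10 libraries were below control and EC50 libraries above it. The dose step was 1.63-fold, 0.71 ± 0.08 on the log2 scale (adjusted p = 0.000227), and was called in every leave-out. OLE1 and SUR1 were the calls among 32 fatty acid and sphingolipid genes, with a median of 0.12, or 0.04 without library 14. The share of all genes called higher was 0.99%. INO1, which makes inositol phosphate, read 700.3, 728 and 743 at EC10 and 711, 787 and 752 at EC50, an estimate of 0.05 ± 0.11 (adjusted p = 0.865). Of 23 phospholipid genes under Ino2 and Ino4 and 31 ergosterol genes limma, edgeR and DESeq2 called 0, with medians of 0.10 and 0.08. At an unadjusted limma p under 0.05 these lists held 5 and 6 higher estimates, against 810 of all 5557 genes in either direction.

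The list with the lowest median was that of the zinc genes under the factor Zap1, at -0.39 over 18 genes, yet limma and edgeR called 0 of its falls. DESeq2 called 3. Of the estimates, 10 lower and 2 higher had an unadjusted limma p under 0.05, against 810 of all 5557 genes. ADH4, an alcohol dehydrogenase, read 13100.2, 10978 and 13689.5 at EC10 and 5600.1, 6394 and 6119 at EC50, an estimate of -1.06 ± 0.27 (adjusted p = 0.0666) with ranges that did not overlap. ZPS1, a secreted protein gene, read 49398, 31274 and 48319.8 at EC10 and 24233, 24336 and 23511 at EC50, and VEL1 read 8099, 4529 and 8417 at EC10 and 3133, 3610.3 and 3061 at EC50, with estimates of -0.81 ± 0.32 and -1.05 ± 0.38 (adjusted p = 0.239 and 0.182). The zinc transporter genes ZRT1 and ZRT3 had estimates of -0.44 ± 0.20 and -0.45 ± 0.23 (adjusted p = 0.334 and 0.386). In ADH4, ZPS1, VEL1, ZRT1 and ZRT3, library 14 was the lowest of the EC10 libraries. Without it the median of the list was -0.54 and 1 fall was called, that of MCD4. IZH2, a membrane protein of zinc balance, rose from 1260.4 ± 111 to 1619.99 ± 31.0 normalized counts (SD, n = 3), a step of 0.37 ± 0.07 (adjusted p = 0.0124), not called without library 10, 11 or 12.

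The iron genes under Aft1 had a median of -0.15 over 29 genes, with 0 called by limma or edgeR and 2 lower by DESeq2. At an unadjusted limma p under 0.05 there were 5 lower, against 810 of all 5557 genes in either direction. FET3, the iron oxidase of high-affinity uptake, read 6020.4, 4397 and 6458 at EC10 and 3233, 4052 and 3499 at EC50, an estimate of -0.63 ± 0.17 (adjusted p = 0.0773), and the permease FTR1 had -0.46 ± 0.13 (adjusted p = 0.0898). Both were called without library 14. The unfolded protein response list had a median of -0.11 over 27 genes, with ERO1 as its call and 5 falls without library 14. KAR2, the Hsp70 of the endoplasmic reticulum, read 15609, 11911 and 16954 at EC10 and 11426, 10785 and 10216 at EC50, an estimate of -0.44 ± 0.12 (adjusted p = 0.0716). For 28 sulfur amino acid genes the median was -0.12, and limma and edgeR called 0, DESeq2 2 lower, with 6 lower at an unadjusted p under 0.05. Without library 14 the medians were -0.21 for the iron list, -0.22 for the unfolded protein response list and -0.16 for the sulfur list, in which the falls of MET22 and MET3 were then called.

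Other lists held few calls, and over all genes tested 0.99% were called higher and 0.792% lower. Of 22 a-specific and pheromone genes TEC1, a factor of filamentous growth, rose from 346 ± 15.3 to 499 ± 57.1 normalized counts (SD, n = 3), a step of 0.52 ± 0.09 (adjusted p = 0.00729), against 808 ± 7.30 in control. Of 25 Rim101 and ESCRT genes the alkaline pH sensor RIM21 rose by 0.34 ± 0.06 and the endosomal sorting gene VPS27 by 0.28 ± 0.07 (adjusted p = 0.0101 and 0.0385). Of 25 permeases of peptides, ammonium and amino acids the glutamate and aspartate permease DIP5 rose by 0.31 ± 0.07 (adjusted p = 0.0285). Of 39 cyclin and G1 regulator genes SRL3 rose from 711 ± 9.75 to 966 ± 21.6, a step of 0.44 ± 0.09 (adjusted p = 0.0143), and of 11 histone genes the histone H4 gene HHF1 changed by -0.39 ± 0.09 (adjusted p = 0.0400), while its copy HHF2 had -0.09 ± 0.07. The medians of these 5 lists were 0.10, 0.03, -0.03, -0.03 and -0.16, and that of the drug pump genes 0.02. TEC1 was called in every leave-out, DIP5 in none, VPS27 only without library 13 and HHF1 only without library 10. RIM21 was not called without library 10 or 12, nor SRL3 without library 10, 12, 13 or 15.

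In 5 further lists limma and edgeR called 0 genes. They were 44 amino acid synthesis genes under Gcn4, 20 osmotic genes under Hog1, 26 oxidative stress genes under Yap1 and Skn7, 9 copper genes and 36 proteasome genes. At an unadjusted limma p under 0.05 they held 5 higher and 2 lower, 3 and 1, 3 and 3, 1 and 1, and 1 and 0. Over all 5557 genes that threshold took 810, in either direction. DESeq2 called 1 lower, 1 higher, 2 lower, 0 and 0, in the same order. Their medians were 0.07, -0.04, -0.03, -0.12 and 0.01. GCN4 itself read 6447 ± 415 at EC10 and 6594 ± 200.4 at EC50, and the peroxidase gene AHP1 15510.1 ± 539.7 and 14654 ± 206 (SD, n = 3).

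Leaving out La EC10 library 14, which moved the median of all genes to 0.0075, changed further lists. The medians became 0.07 for phosphate, 0.03 for purine, 0.12 for Gcn4, -0.08 for permease, -0.07 for copper, 0.04 for proteasome, -0.03 for drug pump, -0.0064 for citrate cycle and -0.06 for cyclin genes. Rises then called that were not before were those of AGA2 among the a-specific genes, CIN5 among the osmotic genes, RNR2 among the cyclin and G1 genes, SLT2 and CWP1 among the wall integrity targets, and CWP1 among the wall mannoprotein genes. The fall of MEP1 was called among the permeases.

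**Figure D3:**
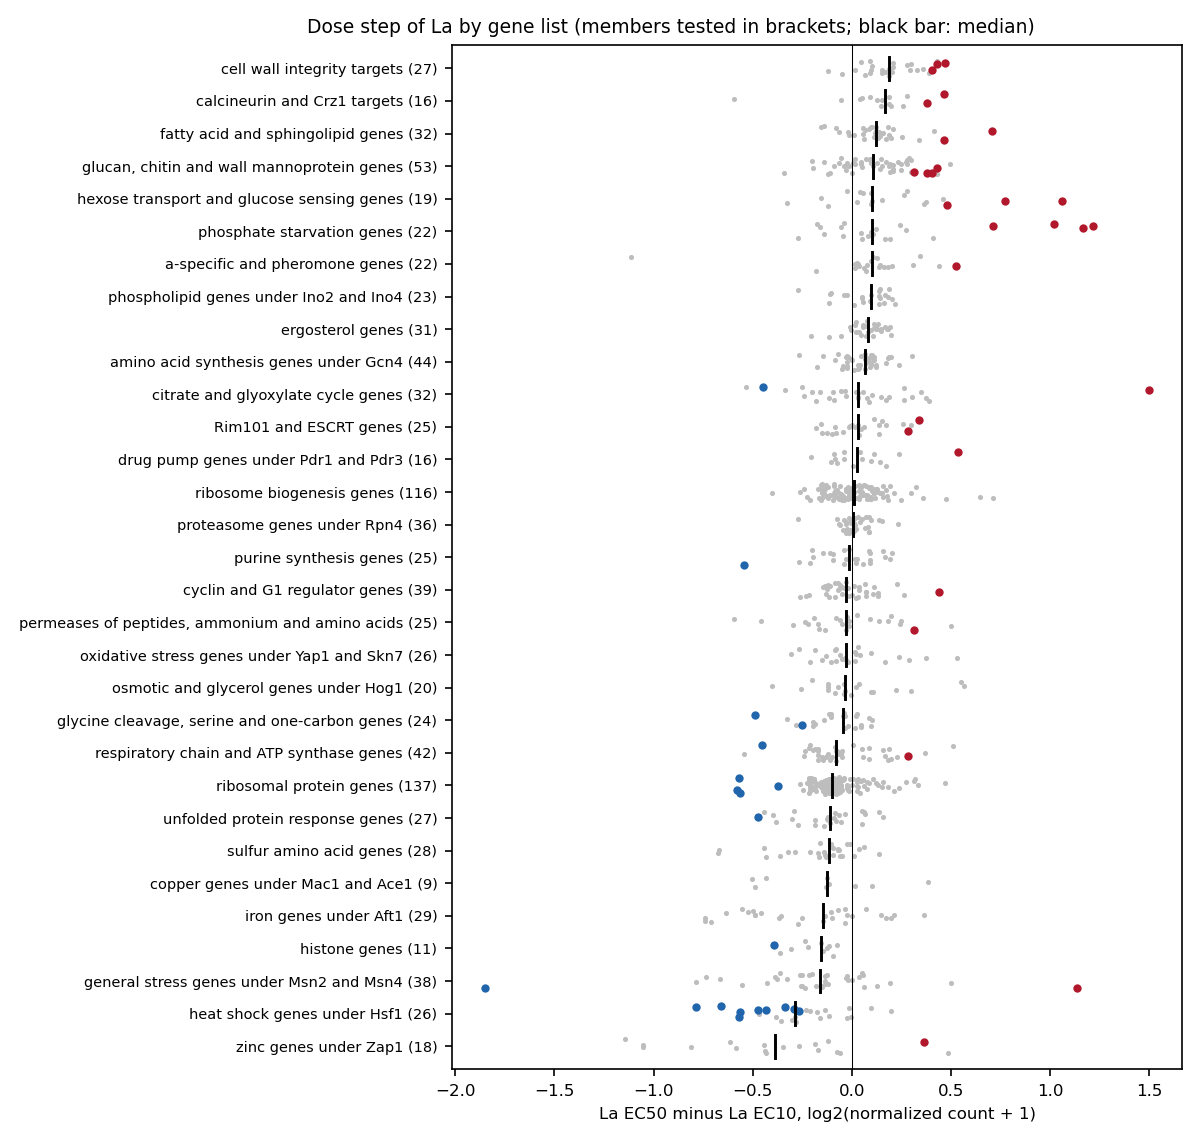
Change of each tested member of 31 gene lists from La EC10 to La EC50, on the log2(normalized count + 1) scale, with the number tested in brackets and lists ordered by median (black bar). Red and blue points are members called higher and lower, and grey points members not called. The heat shock list, with 9 members called lower, has a median of -0.28, and the zinc list the lowest at -0.39.

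The dose step of Yb, from 6 to 8 µM, was fitted in the same model to see which La steps differ from those of the other metal. It had 61 calls (1.1%), and the difference of the steps had 182 (3.28%), 113 with the La step more positive and 69 with it more negative. The nominal steps are not matched, since La rose from 50 to 160 µM and Yb from 6 to 8 µM, and only the labelled effect levels are shared. PHO89 read 2801, 2393 and 2555 at Yb EC10, in libraries 7, 8 and 9, and 2719.8, 2882 and 2508 at Yb EC50, in libraries 4, 5 and 6, a step of 0.07 ± 0.09 that differed from the La step by 1.10 ± 0.12 (adjusted p = 0.00106). PHO5, PHO11 and PHO12 differed by 1.25 ± 0.22, 1.43 ± 0.23 and 0.99 ± 0.18 (adjusted p = 0.0151, 0.00779 and 0.0174). SSA1 read 5004, 4228 and 4661 and 5859.5, 4687 and 5503 with Yb and differed by -0.86 ± 0.12, and SHM2 and ADE17 by -0.66 ± 0.09 and -0.76 ± 0.10 (adjusted p = 0.00293 for each of these 3).

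Steps of MTH1, HXT2 and MAL33 had estimates of 0.39 ± 0.14, 0.30 ± 0.12 and 0.54 ± 0.12 with Yb. Of these Yb steps that of MAL33 alone was called (limma adjusted p = 0.131, 0.172 and 0.0482). For MTH1, HXT2 and MAL33 the difference from the La step was 0.66 ± 0.20, 0.47 ± 0.17 and 0.22 ± 0.17 (adjusted p = 0.0701, 0.131 and 0.548). The Yb steps of TPO4 and SRL3, 0.46 ± 0.10 and 0.40 ± 0.09, were also called (adjusted p = 0.0462 for each). Their differences from the La step were 0.07 ± 0.14 and 0.04 ± 0.12 (adjusted p = 0.850 and 0.915). The La and Yb steps of PRM5, CRH1 and YPS3 differed by 0.33 ± 0.11, 0.28 ± 0.10 and 0.08 ± 0.14 (adjusted p = 0.106, 0.142 and 0.806). An adjusted p above 0.05 does not show that the steps were alike. The count of calls for the difference was 17 without Yb EC50 library 6, 34 without library 4, 481, 48 and 33 without Yb EC10 library 7, 8 or 9, 76 and 16 without La EC50 library 11 or 12, and 78, 80 and 46 without La EC10 library 13, 14 or 15. Yb EC50 library 5 and La EC50 library 10 were also left out in turn, and those counts are not listed.

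**Figure D4:**
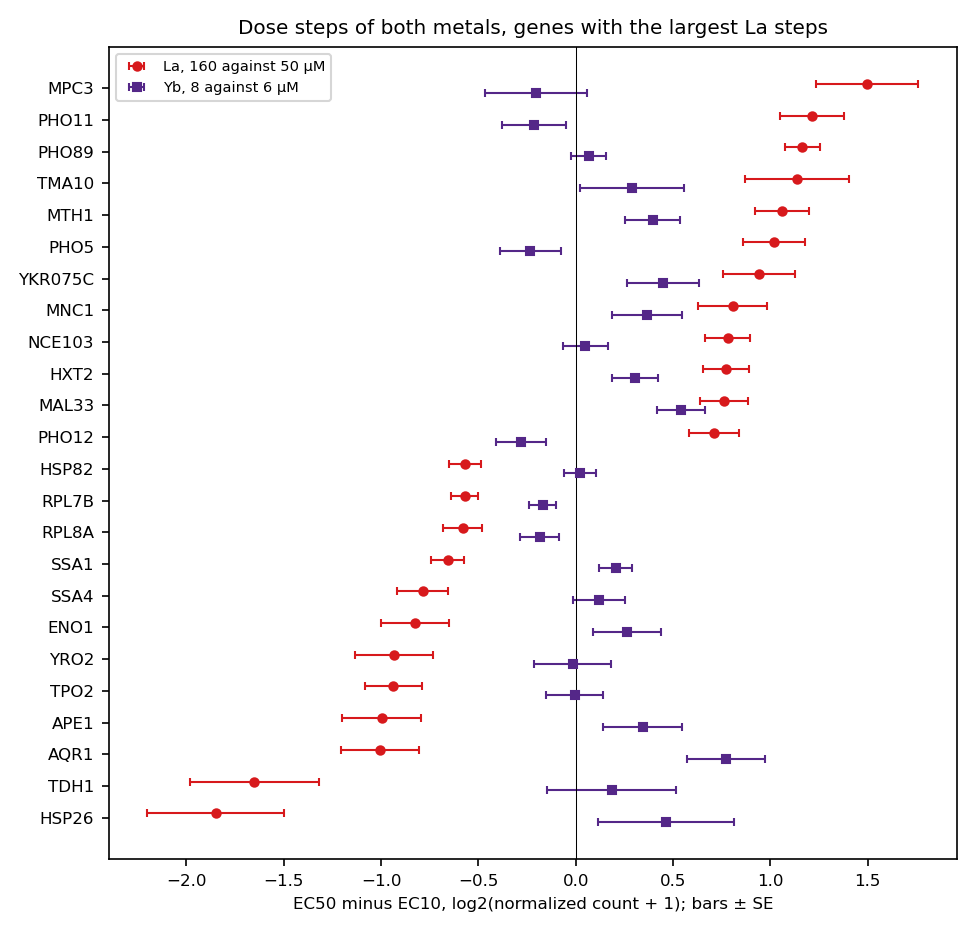
Change from EC10 to EC50 with La (red circles, 160 against 50 µM) and with Yb (purple squares, 8 against 6 µM) for the 24 genes with the largest called La rises and falls, on the log2(normalized count + 1) scale with bars of ± SE. PHO11, PHO89, PHO5 and PHO12 lie at 0.71 to 1.21 with La and at -0.28 to 0.07 with Yb, while MAL33 lies at 0.76 with La and 0.54 with Yb.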

How the data were processed

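Strand-specific RNA libraries of yeast were sequenced, per the labels' protocols. The deposited table holds, for 6600 gene identifiers, a signal per library, which the authors obtained from gene counts through division by a size factor. The submitters' processing notes name build R64, HTSeq 0.6.1p1, TopHat2 2.1.1, FastQC 0.67 and DESeq2 1.14.1. What each did, in which order, and how strand was set in counting is not given in the sources used here. In each library 100% of the values, within a tolerance of 0.01, were whole multiples of 1 step, so whole reads were recovered. The 5 deposited columns of group means equalled the means computed from the libraries and were left aside. Column names carry the group and a running number only, with no replicate number.

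Of the identifiers, 5917 matched the RefSeq annotation of R64, whose coordinates are 1-based. Genes with a mean of at least 10 over the 6 La libraries were tested on log2(normalized count + 1), the scale of all log2 changes here. That scale understates changes of low genes. The test was a 2-sided contrast in limma 3.58.1 (R 4.3.3) with a mean-variance trend, fitted to all 15 libraries with 1 coefficient a group, and p-values were adjusted by Benjamini-Hochberg over all 5557 genes. Calls were made at an adjusted p under 0.05. An exact test of 3 libraries against 3 cannot go below 0.10 and was not used. The difference of the La and Yb steps was a contrast of the same fit. The scripts were tested on simulated data. Chi-square values per degree of freedom between libraries of a group were 2.92 to 27.1, more than sampling noise gives, and no pair was merged.

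Members, 31 gene lists, marker lists and tests were chosen with earlier results of these data known. The genes named are the 12 largest called rises and falls with a mean of at least 50 in the higher group and ranges apart, the 6 largest differences of steps in each direction, and up to 4 called members of each list, or its 2 most abundant members if it had no call. Other genes, such as copies of a named gene, were added after their values were seen. The ribosomal list leaves out RPP1, a subunit of RNase P. Alternatives were other pseudocounts, filters, scalings, fits and weights, edgeR 4.0.16 and DESeq2 1.42.0 on the recovered reads, and each library left out. Near-identical copies and overlapping genes are uncertain.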

Additional observations from a re-analysis of the deposited data

Results flagged for a closer look

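The step from EC10 to EC50 differed between the metals in 52 of the genes named above or here. By limma's test of the difference itself, their adjusted p ran from 0.00106 to 0.0496. Over all genes tested the difference was called in 182 of 5557 (3.28%). Many genes were named for a large La step or a large difference, so the count of 52 does not show how common a difference is. Each value below is the La step minus the Yb step on the log2 scale. The phosphate genes differed by 1.10 for PHO89, 1.25 for PHO5, 1.43 for PHO11, 0.99 for PHO12 and 0.70 for SPL2. Chaperone and stress genes differed by -2.31 for HSP26, -0.86 for SSA1, -0.91 for SSA4, -0.59 for HSP82, -0.84 for HSP78, -0.64 for HSP104, -0.38 for AHA1 and -0.47 for CPR6, and the glycolytic genes by -1.84 for TDH1 and -1.09 for ENO1. One-carbon and purine genes differed by -0.66 for SHM2, -0.30 for SER33 and -0.76 for ADE17, and ribosomal protein genes by -0.40 for RPL7B and -0.58 for RPL9B. The regulators HMO1 and DOT6 differed by -0.55 and -0.53. In carbon and lipid metabolism the differences were 1.70 for MPC3, -0.81 for LSC2, 0.73 for NCE103, 0.80 for MAL11, 0.47 for OLE1, -0.77 for INO1 and 0.62 for BIO2. Transport, wall and regulatory genes differed by -1.78 for AQR1, -0.93 for TPO2, 0.50 for DIP5, 0.46 for IZH2, -0.89 for MEP1, 0.83 for CIN5, 0.50 for TIP1, 0.48 for CHS7, 0.43 for WSC3, 0.61 for KTR5, 0.72 for INA1, 0.74 for TDA4 and 0.67 for TEC1, and the vacuolar aminopeptidase gene by -1.34 for APE1. The La step itself was not called for SPL2, INO1, MEP1 and CIN5.

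Of the 6 largest negative differences, HSP26, TDH1 and AQR1 stand above, and the others were -1.75 for FMP16, -1.72 for SPS19 and -1.50 for YOR338W. SPS19, which acts on fatty acids in peroxisomes, read 38.1, 35.1 and 35.0 normalized counts at La EC10 and 14.96, 19.2 and 18.9 at La EC50. With Yb it read 50.5, 34.3 and 42.9 at EC10 and 81.5, 66.2 and 63.7 at EC50. The La libraries fell apart by dose downward and the Yb libraries upward, with steps of -0.997 with La and 0.72 with Yb. The steps of FMP16 were -0.82 with La and 0.93 with Yb, and those of YOR338W were -0.37 with La and 1.13 with Yb. Neither step was called in FMP16 (limma adjusted p = 0.225 with La and 0.117 with Yb). Nor was either called in YOR338W (adjusted p = 0.547 with La and 0.0523 with Yb). FMP16 read 84.3, 45.3 and 99.8 at La EC10 and 43.9, 42.9 and 36.0 at La EC50, with library 14 the lowest at EC10. In YOR338W the La EC50 libraries spread from 49.9 to 141, across the La EC10 range of 84.3 to 133.

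The 6 largest positive differences were 2.34 for CSN9, 2.05 for YDL085C-A, 1.89 for TMA7, 1.88 for EFG1, 1.85 for EMC6 and 1.83 for POP5. In none of these 6 was the La step called (adjusted p from 0.432 to 0.565 in limma), and the Yb step was the larger part. CSN9, a subunit of the COP9 signalosome, read 263, 609.5 and 786 at Yb EC10 and 111, 199.6 and 126 at Yb EC50, with 658, 286 and 521 at La EC10 and 498, 678 and 852 at La EC50. Library 14 was the lowest of the La EC10 libraries, and library 7 the lowest at Yb EC10. EMC6, of a membrane protein insertion complex, read 2593, 1344 and 2353 and 2188, 3115 and 3587 with La, where library 14 was again the lowest. The 113 genes with a positive difference had a median annotated gene span, introns included, of 559.5 bases. Over all genes tested it was 1251, with 1404 for the La step's rises and 1440 for its falls. The part of gene span in these differences was not tested.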

How the results depend on the processing

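No paired analysis was possible because the column names carry no replicate numbers. The 99 dose-step calls became 97 with TMM factors, 96 with quantile normalization, 83 in a fit to the groups compared and 101 with edgeR's quasi-likelihood test. These were not all the same genes. Of the 99 genes, 95, 81, 59 and 96 were still called in these settings, in the same order. Equal totals kept 70 of the 99, DESeq2 98 and library weights 99. No called gene changed sign in any setting. Larger moves came with library weights (411 calls, 216 higher and 195 lower), DESeq2 (169, 90 and 79) and equal totals (24 lower). Leaving out single libraries gave 32 to 100 calls, 21 to 49 higher and 11 to 51 lower. The 182 calls for the difference of the La and Yb steps became 70 with no filter, 57 in a fit to the groups compared, 73 with robust moderation, 554 with library weights and 355 with DESeq2, and ran from 16 to 481 with single libraries left out. The cause was not tested. Of the 24 most changed genes, 13 were called in every leave-out and setting. HSP26, TDH1, AQR1 and TMA10 were not called with robust moderation, and ENO1 was not called with quantile normalization. YRO2 and MNC1 were not called in the fit to the groups compared. In these libraries 3 reads, the limit that a count of 0 allows, were worth 2.70 to 3.19 normalized counts in La libraries, for counting error only.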

Other observations

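Smaller called changes outside the lists, looked at after their values were seen, included rises in 4 genes. BIO2, the biotin synthase gene, read 489.6, 480.04 and 509.5 normalized counts in control, 340.1, 344 and 319.6 at La EC10 and 458, 497 and 448 at La EC50, a dose step of 0.48 ± 0.07 (SE, n = 3 and 3, limma adjusted p = 0.00223). Its EC10 libraries were below both other groups. INA1, a plasma membrane protein gene, followed the same order with 2161 ± 107 in control, 1608 ± 63.6 at EC10 and 2175 ± 66.3 at EC50 (SD, n = 3), a step of 0.44 ± 0.07 (adjusted p = 0.00223). PRM4, a pheromone-regulated gene, had 141 ± 5.16, 99.0 ± 9.94 and 144 ± 8.35, a step of 0.54 ± 0.09 (adjusted p = 0.00585). TDA4, a membrane protein gene, had 192 ± 5.07, 157 ± 11.7 and 243 ± 14.3, a step of 0.63 ± 0.09 (adjusted p = 0.00110). BIO2, INA1, PRM4 and TDA4 were called in every leave-out of a La library.

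Other called falls outside the lists, picked after their values were seen and with no test of them as a group, were those of the kinetochore gene CBF2 at -0.43 ± 0.09, the mating-type endonuclease gene HO at -0.39 ± 0.08, the flap endonuclease gene RAD27 at -0.29 ± 0.07, the spindle pole gene MPS3 at -0.30 ± 0.07, the forkhead-associated gene TOS4 at -0.32 ± 0.07, the histone gene regulator SPT21 at -0.30 ± 0.07 and the general factor ABF1 at -0.30 ± 0.07 (adjusted p from 0.0198 to 0.0406). HO read 614, 768 and 601 at La EC10 and 519, 484 and 505 at La EC50, and CBF2 313, 382 and 351 at EC10 and 269, 246 and 260.3 at EC50, with every EC50 library below every EC10 library. Each of these 7 lost its call in at least 3 of the 6 leave-outs. YGK3, a glycogen synthase kinase-3 homologue gene, fell from 285 ± 13.5 to 198 ± 9.01 (SD, n = 3), a step of -0.52 ± 0.09 (adjusted p = 0.00598), and was called in all 6.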
